A study of Mus musculus with 2 samples.

Results

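Checkpoint receptors and their ligands are represented here by 10 genes, chosen by name: the receptors Pdcd1 (PD-1), Havcr2 (TIM-3), Lag3, Tigit, Cd96 and Cd226 (DNAM-1), and the ligands Cd274 (PD-L1), Pdcd1lg2 (PD-L2), Lgals9 (galectin-9) and Pvr (CD155). All 10 were found by symbol among the 32285 genes of both count matrices. The matrices come from 2 droplet libraries (10x Genomics 5′ chemistry) of live CD45-positive cells, sorted by flow cytometry from dissociated hepatocellular carcinomas of mice. The first library is from mice given STK and the second from mice given DMSO. Tumours were taken after gavage, and both groups carry the genotype MYC-ON, so the oncogene setting is shared by STK and DMSO mice. The labels do not name the promoter that drives MYC, spell out STK, or state its dose, its duration, or how many animals of which age and sex were used. With 1 library a group there is no replicate check: no test was run, and every interval below is a 95% interval that covers counting error only.

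PD-1, TIM-3, LAG-3 and TIGIT are surface receptors that restrain T and NK cells, and they accumulate on T cells under lasting antigen exposure. PD-1 binds PD-L1 and PD-L2 and recruits phosphatases to the antigen receptor and to CD28. Galectin-9 is a ligand of TIM-3. TIGIT and CD96 compete with the activating receptor CD226 for CD155, so that the same ligand can restrain or help a cell depending on the receptor it meets. In liver tumours the ligands are known from myeloid cells as well as from tumour cells, where PD-L1 is raised by interferon-gamma.

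In short, Pdcd1 and Tigit were higher in CD8 T cells of the STK library, and Tigit was also higher in NK cells, whereas Lag3 and Havcr2 were lower in CD8 T cells over all cells but not in female cells. Among the ligands, Pdcd1lg2 was 2.91-fold higher in NK cells, and Pvr was higher in cDC2, macrophages, classical monocytes and hepatocyte or tumour cells. Cd274 was lower in macrophages and classical monocytes over all cells and in male cells. In female cells those ratios were above 1, from few DMSO UMIs. In T and NK cells Cd274 was higher, and Lgals9 was close to equal in every type.

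The STK library held 81859811 unique molecular identifiers (UMIs, single captured RNA molecules) over 11672 barcodes and the DMSO library 79322966 over 11784. After filters on UMIs, genes and mitochondrial share, 10846 STK and 11152 DMSO cells remained, with medians of 4930.5 and 4471.5 UMIs a cell, and 203 barcodes occurred in both libraries. Cells were placed in types by their own markers, none of which is one of the 10 genes, so each type name stands for cells that resemble that type in marker RNA. 15 types had at least 100 cells in each library, and 21.3% of STK and 24.5% of DMSO cells met no marker rule. T cells that met no subset rule are called other T below; their leading genes, such as Penk, Ccr8 and Tnfrsf4, belong with regulatory T cells (Treg). From Xist and Y-linked RNA, 4613 STK cells were read as female and 1621 as male. In the DMSO library 1025 were read as female and 4439 as male. Among these cells 74.0% were female in the STK library and 18.8% in the DMSO library, so sex and treatment are partly confounded. The remaining cells count only in values over all cells, so a ratio over all cells can lie outside both sex ratios. Ratios within female and within male cells are given for many pairs of the 10 genes, but for no gene of the other lists.

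In GENCODE vM21 (GRCm38) the inhibitory receptors lie apart from each other: Pdcd1 on chr1:94038305-94052553, Havcr2 on chr11:46454935-46481255, Lag3 on chr6:124904361-124911705, and Tigit and Cd96 on the same chromosome at chr16:43648867-43664146 and chr16:46035657-46120251. Lgals9 is at chr11:78962974-78984946 and Pvr at chr7:19903578-19921160, and Cd226 is placed with its values further on. The PD-1 ligand genes are neighbours on chromosome 19, Cd274 at chr19:29367455-29388095 and Pdcd1lg2 at chr19:29410919-29471161, on the same strand with 22823 bases and no annotated gene between them. Only antisense genes overlap a member, namely 1 each at Cd274 and Pdcd1lg2 and 2 at Pvr.

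The RefSeq promoter table (GRCm38.p6) holds 7 of the 10 genes: Pdcd1, Havcr2, Tigit, Cd96, Cd274, Pdcd1lg2 and Lgals9. The 250 bases upstream of the RefSeq start are shown for Pdcd1 and Tigit, which were higher together in CD8 T cells, for Havcr2, which was not, and for Pdcd1lg2, the ligand with the widest difference in NK cells. The windows read 5′ to 3′ along the gene, no GENCODE exon overlaps them, and capitals mark matches on either strand to 4 motifs: AP-1 (TGANTCA), the interferon-gamma activated site GAS (TTCNNNGAA), a paired interferon regulatory factor motif (GAAANNGAA) and the NFAT core (GGAAA).
Pdcd1, chr1:94052554-94052803, minus strand: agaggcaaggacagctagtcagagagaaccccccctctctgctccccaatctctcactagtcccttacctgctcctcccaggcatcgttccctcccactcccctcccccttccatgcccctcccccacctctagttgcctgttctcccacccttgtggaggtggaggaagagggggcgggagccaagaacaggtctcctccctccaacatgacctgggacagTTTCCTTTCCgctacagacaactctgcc
Tigit, chr16:43664185-43664434, minus strand: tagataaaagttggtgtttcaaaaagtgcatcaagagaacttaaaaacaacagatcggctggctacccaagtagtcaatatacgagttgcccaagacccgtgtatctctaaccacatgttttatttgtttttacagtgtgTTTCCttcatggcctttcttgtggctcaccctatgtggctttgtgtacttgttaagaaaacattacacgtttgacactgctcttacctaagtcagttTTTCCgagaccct
Havcr2, chr11:46454681-46454930, plus strand: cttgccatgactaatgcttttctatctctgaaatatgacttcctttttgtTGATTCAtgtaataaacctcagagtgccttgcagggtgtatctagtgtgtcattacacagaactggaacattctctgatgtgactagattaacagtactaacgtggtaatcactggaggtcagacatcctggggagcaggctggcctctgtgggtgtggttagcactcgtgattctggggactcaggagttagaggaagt
Pdcd1lg2, chr19:29410669-29410918, plus strand: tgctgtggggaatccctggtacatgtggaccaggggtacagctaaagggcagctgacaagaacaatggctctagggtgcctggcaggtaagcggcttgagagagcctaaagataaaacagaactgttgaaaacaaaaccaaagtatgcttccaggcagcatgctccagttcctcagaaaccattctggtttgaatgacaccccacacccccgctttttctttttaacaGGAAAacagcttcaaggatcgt
The NFAT core occurs in 6 of the 7 members' windows, against 55.6% of 32851 windows of all genes, so most promoters hold it. Pdcd1 and Tigit have 2 matches each, Pdcd1lg2 has 1 and Havcr2 has 0. The AP-1 motif was matched once, in Havcr2, against 6.75% of all windows. The paired interferon motif was matched in 3 windows, those of Cd96, Cd274 and Lgals9, against 7.13% of all windows, and the GAS motif in 1, that of Cd96, against 7.02%. Matches to different motifs can overlap, and they describe letters, not binding.

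Over all cells of a library, without regard to type, the receptors Pdcd1 and Tigit and the ligands Pdcd1lg2 and Pvr were over 1.5 times higher in STK. Pdcd1 had 80.8 CPM (UMIs of the gene for each 1000000 UMIs counted) in STK and 50.5 CPM in DMSO, Tigit 111 and 65.6 CPM, Pdcd1lg2 26.5 and 13.1 CPM, and Pvr 21.5 and 13.2 CPM. Cd96 stood at 18.4 and 12.5 CPM, a ratio of 1.47, and the other 5 genes had ratios between 0.976 (Lgals9) and 1.24 (Havcr2). These sums move with the mix of cells: CD8 T cells were 15.0% of STK and 10.6% of DMSO cells, NK cells 9.49% and 6.73%, and hepatocyte or tumour cells 8.98% and 11.9%. The levels below are therefore taken within types.

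Taking every gene and type together, 119 of the 150 gene-by-type pairs had at least 20 UMIs over both libraries and were compared in CPM of the type, the gene's UMIs over all UMIs of that type's cells. In 30 of them the STK value was at least 1.5 times the DMSO value, in 5 it was at least 1.5 times lower, and 84 lay between. Among all 135739 gene-by-type pairs measured the same way, 7.79% were that much higher and 9.61% that much lower in STK. The median log2 ratio was 0.33 over the members' pairs and -0.03 over all genes. For 25 of the 30 higher pairs and 3 of the 5 lower pairs the counting interval excluded equal levels. Shares of cells with a UMI, after thinning to 1000 UMIs a cell, were higher in STK for 80 of the 119 pairs and lower for 38.

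These calls were not spread evenly. In T and NK cells the receptors had 2 higher and 2 lower calls among 28 measured pairs, and the ligands 6 higher and 1 lower among 20. In all other types the receptors had 16 higher calls among 36 pairs and the ligands 6 among 35. Most of the receptor calls outside T and NK cells lay in types whose T cell marker RNA was also higher in STK, and those values are given with the types.

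**Figure D1:**
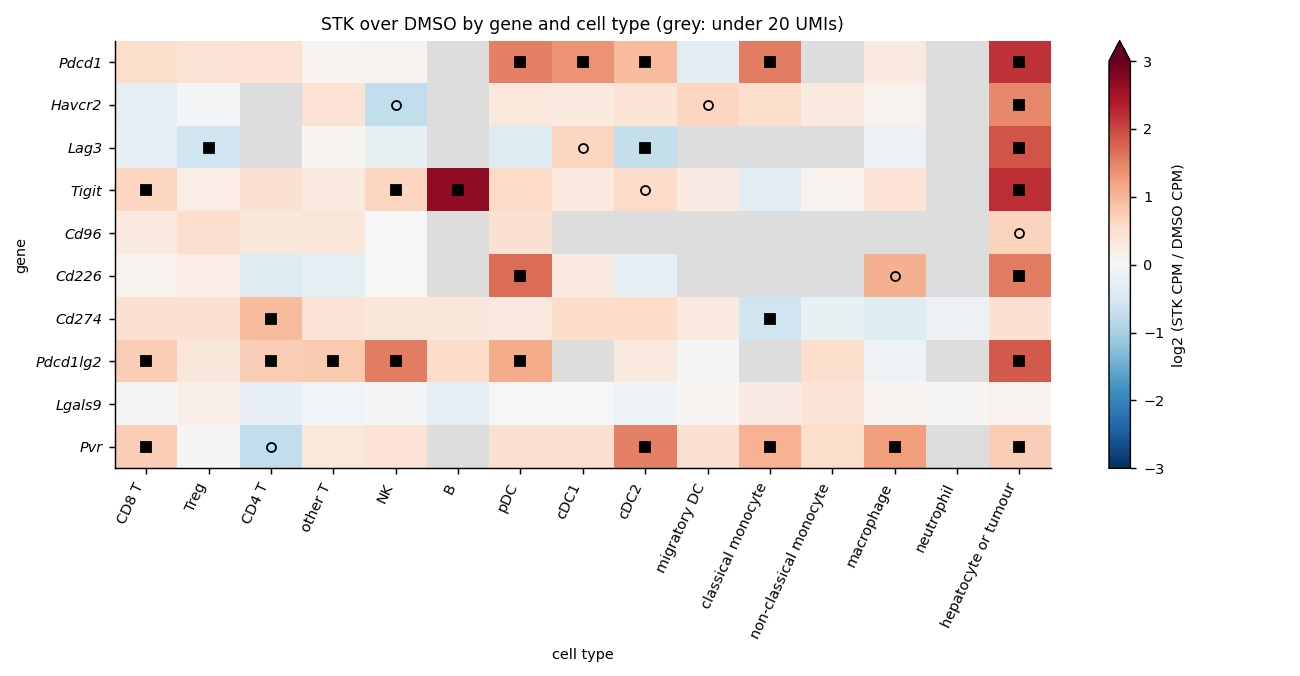
STK over DMSO ratio of CPM on a log2 scale (colour) for each gene (rows) and cell type (columns). Grey cells had under 20 UMIs over both libraries, black marks show the 30 pairs at least 1.5 times higher and the 5 at least 1.5 times lower in STK, and a filled square means that the counting interval excluded 1. The Lgals9 row is pale throughout, and the hepatocyte or tumour column has 8 marked pairs of 10.

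Pdcd1, the PD-1 receptor, was a T cell gene in both libraries. Treg cells had the highest level, 483 CPM in STK and 366 CPM in DMSO, and CD8 T cells held the largest share of its UMIs, 44.5% of all Pdcd1 UMIs in STK and 39.4% in DMSO, while they were 15.0% and 10.6% of the cells. In CD8 T cells Pdcd1 stood at 366 CPM (352 to 379) in STK and 256 CPM (243 to 269) in DMSO, a ratio of 1.43 (1.34 to 1.52), from 2867 and 1552 UMIs. The STK value was higher and the intervals did not overlap, but the ratio stayed under 1.5. The same direction held in Treg cells at 1.32 (1.18 to 1.47) and in CD4 T cells at 1.36 (1.12 to 1.65), where levels were 285 CPM in STK and 210 CPM in DMSO. In other T cells the values were 328 and 311 CPM, a ratio of 1.06 whose interval of 0.968 to 1.15 includes 1.

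Pdcd1 was also detected in more CD8 T cells of the STK library. With every cell thinned to 1000 UMIs, 25.0% of STK and 17.2% of DMSO CD8 T cells had a Pdcd1 UMI, and for Treg cells the shares were 38.8% and 31.9%. Hepatocyte or tumour cells, which should lack the receptor, had 0.217% and 0.0781% at the same depth, from cells with unthinned medians of 23052 and 23770.5 UMIs. Shares were larger in some shallower types outside T and NK cells, such as pDC with 1.94% and 0.834% and migratory DC with 2.01% and 1.99%. The unthinned medians of CD8 T cells were 3716 and 4118.5 UMIs, so the STK cells were the shallower ones. Within male CD8 T cells the ratio of Pdcd1 was 1.65, from 734 STK and 954 DMSO UMIs, and within female cells it was 3.30, from 966 and 31 UMIs. Treg cells had 1.46 in male and 1.26 in female cells, while CD4 T cells had 1.03 in male cells and 2.24 in female cells.

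Tigit followed Pdcd1 in CD8 T cells and reached further into NK cells. Its highest level was in Treg cells, with 713 CPM in STK and 617 CPM in DMSO, a ratio of 1.16 (1.06 to 1.26). In CD8 T cells it had 308 CPM (296 to 321) in STK and 197 CPM (186 to 209) in DMSO, a ratio of 1.56 (1.46 to 1.68). In NK cells it had 349 CPM (334 to 365) in STK and 223 CPM (208 to 238) in DMSO, a ratio of 1.57 (1.45 to 1.70). Both ratios were past 1.5 and neither pair of intervals overlapped. Tigit UMIs were found in 30.6% of STK and 20.8% of DMSO NK cells at 1000 UMIs a cell, and in 25.1% and 17.2% of CD8 T cells, against 0.326% and 0.156% of hepatocyte or tumour cells and 3.89% and 2.36% of pDC.

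In CD8 T and NK cells the direction of Tigit was the same in both sexes. Female CD8 T cells had a ratio of 1.95 and male ones 1.79. Female NK cells had a ratio of 1.26, which is under 1.5, and male ones 1.76. In NK cells with no T marker UMI, 80 in STK and 52 in DMSO, Tigit had 393 and 252 CPM. In Treg cells the ratio of Tigit was 0.878 (0.607 to 1.31) in female cells, from 347 and 31 UMIs. In male Treg cells it was 1.17 (1.01 to 1.36), and the intervals of the sexes overlap. In other T cells Tigit had 396 CPM in STK and 323 CPM in DMSO, a ratio of 1.22 (1.13 to 1.33), and in CD4 T cells 246 and 178 CPM, a ratio of 1.38 (1.12 to 1.70). Treg cells differed least of the 5 T and NK types.

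Havcr2, which encodes TIM-3, was mainly a myeloid gene here. It was highest in non-classical monocytes, with 176 CPM in STK and 144 CPM in DMSO, then in cDC1, with 147 and 120 CPM, and cDC2, with 97.1 and 73.6 CPM. The first 2 of these did not differ beyond their counting intervals in the STK library. The STK value was higher in cDC1 (ratio 1.23, 1.03 to 1.46), cDC2 (1.32, 1.08 to 1.61) and classical monocytes (1.43, 1.18 to 1.73), and no ratio in these types reached 1.5. Within the sexes the monocyte ratio was 0.893 in female cells and 2.65 in male cells, and that of cDC1 0.637 and 1.22. CD8 T cells went the other way, with 35.2 CPM in STK and 43.0 CPM in DMSO, a ratio of 0.818 (0.688 to 0.973). That difference was opposite in the sexes: the ratio was 0.616 in male CD8 T cells, from 46 and 160 UMIs, and 2.43 in female ones, from 115 and 5 UMIs.

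Lag3, a receptor for MHC class II, was led by plasmacytoid dendritic cells (pDC) and not by T cells. They had 197 CPM (185 to 209) in STK and 256 CPM (240 to 273) in DMSO, a ratio of 0.769 (0.704 to 0.840), and held 46.9% of Lag3 UMIs in STK and 48.0% in DMSO. The STK value was lower without overlap of the intervals. In pDC without any T marker UMI the levels were 205 and 261 CPM, so the gap was there in those cells too, with a ratio of 0.785. Female pDC had a ratio of 0.509 and male pDC one of 0.964.

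In CD8 T cells Lag3 had 48.1 CPM in STK and 56.7 CPM in DMSO, a ratio of 0.848 (0.731 to 0.984), with 4.02 in female cells, from 152 and 4 UMIs, and 0.761 in male cells. In Treg cells it had 34.5 CPM (25.4 to 45.9) in STK and 52.4 CPM (42.1 to 64.5) in DMSO, a ratio of 0.658 (0.452 to 0.948) from 47 and 89 UMIs. Treg cells are thus past the 1.5-fold limit, and the 2 CPM intervals overlap. In cDC2 the values were 12.4 and 20.2 CPM, a ratio of 0.613 (0.382 to 0.977). Male cDC2 had a ratio of 0.357 (0.121 to 0.883), from 6 and 27 UMIs, and female cDC2 had 24 UMIs in STK and 0 in DMSO. NK cells, with 20.8 and 24.2 CPM, did not differ beyond counting error.

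Cd96 and Cd226, the other receptors for the TIGIT ligand, were T and NK genes with small differences. Cd96 had 62.6 CPM in STK and 50.7 CPM in DMSO in CD8 T cells, a ratio of 1.23 (1.07 to 1.43), and 47.6 and 47.7 CPM in NK cells, a ratio of 0.997 (0.823 to 1.21). Cd226 (chr18:89176967-89272229), the activating receptor, had 88.9 CPM in STK and 83.2 CPM in DMSO in CD8 T cells, a ratio of 1.07 (0.951 to 1.20). In other T cells Cd226 was lower in STK, 99.6 CPM against 123 CPM in DMSO, a ratio of 0.810 (0.698 to 0.939), with 1.06 in female and 0.624 in male cells. In NK cells Cd226 had 53.3 and 52.8 CPM, so that there the STK library had more Tigit with about the same Cd96 and Cd226. Outside T and NK cells Cd226 was highest in cDC1, with 27.9 CPM in STK and 22.9 CPM in DMSO.

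**Figure D2:**
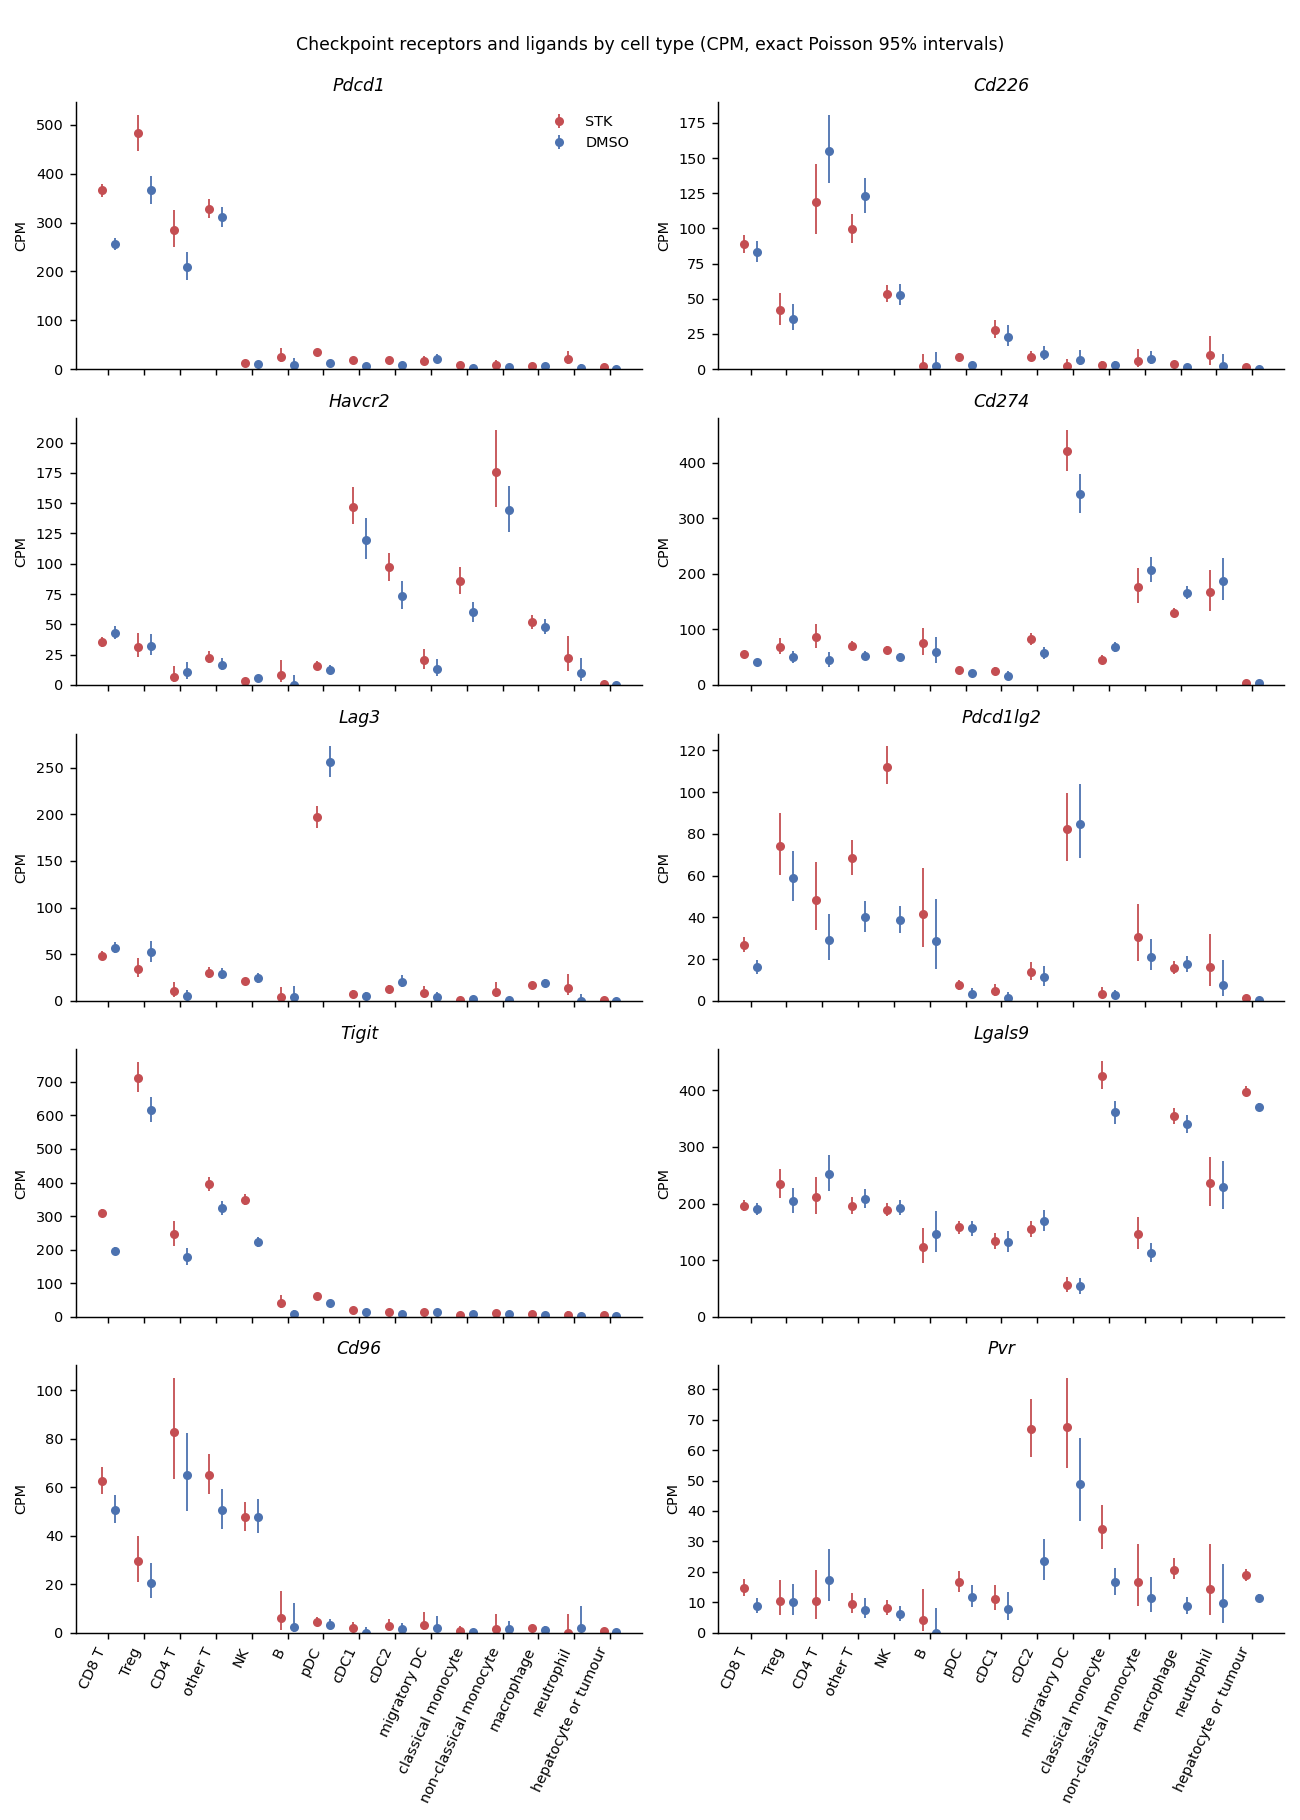
Levels of the 10 genes (CPM, y axes from 0, a scale of its own in each panel) in 15 cell types, with STK left of DMSO in each pair and exact Poisson 95% intervals. Pdcd1 and Tigit peak in Treg cells (483 and 713 CPM in STK), Lag3 in pDC, Havcr2 in non-classical monocytes, Cd274 in migratory DC, and Pdcd1lg2 of the STK library in NK cells.

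Of the 10 genes in CD8 T cells, all were measured, 3 were at least 1.5 times higher in STK (Tigit, Pdcd1lg2 and Pvr) and 0 were as much lower, against 6.08% of 11200 genes higher and 7.62% lower in that type. In NK cells 2 of 10 were higher (Tigit and Pdcd1lg2) and 1 lower (Havcr2, from 18 and 21 UMIs), against 5.85% and 8.94% of all genes. In Treg cells 0 of 10 were higher and 1 (Lag3) was lower, against 6.48% and 10.8%. The Treg share is thus no larger than the background.

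Pdcd1, Havcr2, Lag3 and Tigit were found together in pairs in CD8 T cells of both libraries more often than the product of their shares gives. In CD8 T cells thinned to 1000 UMIs, 190 of 1619 STK cells had both a Pdcd1 and a Tigit UMI, where the product of the shares gives 102, and 77 of 1175 DMSO cells, where it gives 34.7. The share with both was 11.7% (10.2 to 13.4) in STK and 6.55% (5.21 to 8.12) in DMSO. Among Pdcd1-positive cells, 46.9% of STK and 38.1% of DMSO cells had Tigit, and among Pdcd1-negative cells 17.9% and 12.8%. Pairs with Havcr2 and Lag3 were rarer. Pdcd1 with Havcr2 was seen in 1.73% of STK and 2.13% of DMSO cells, Pdcd1 with Lag3 in 2.41% and 2.89%, and Havcr2 with Lag3 in 0.556% and 0.766%, and the intervals of the libraries overlap for each of these pairs.

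Counting Pdcd1, Havcr2, Lag3 and Tigit, 15.1% (13.4 to 16.9) of STK and 11.1% (9.41 to 13.1) of DMSO CD8 T cells had 2 or more, a ratio of 1.35 (1.09 to 1.68). Within male CD8 T cells the ratio was 1.37, with an interval of 0.944 to 1.98 that includes 1. Female CD8 T cells had 3.11 (1.02 to 15.4), from 70 of 623 STK and 3 of 83 DMSO cells. Over all CD8 T cells, those with 3 or 4 of the receptors were 2.41% in STK and 2.13% in DMSO. In Treg cells the share with 2 or more was 27.6% in STK and 20.7% in DMSO, a ratio of 1.33 whose interval of 0.925 to 1.92 includes 1. In Treg cells too the pair was mainly Pdcd1 with Tigit, in 25.0% and 19.4% of cells, while the product of the shares gives 19.7% and 15.5%. The pair of Tigit with the activating receptor Cd226 was seen in 41 STK CD8 T cells where the product gives 36.5, and in 14 DMSO cells where it gives 15.1, so these were close to the product.

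**Figure D3:**
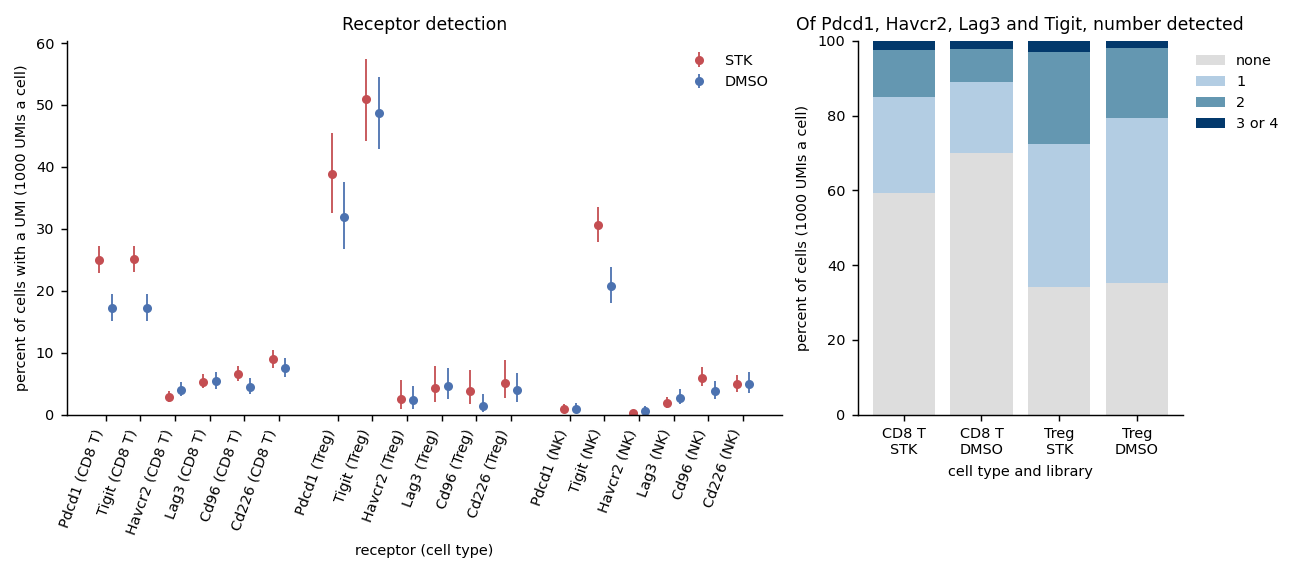
Left, percent of cells with a UMI of each receptor in CD8 T, Treg and NK cells after thinning to 1000 UMIs a cell, STK left of DMSO, with exact binomial 95% intervals; Pdcd1 and Tigit stand at 25.0% and 25.1% in STK CD8 T cells, and Havcr2 and Lag3 stay under 6% in all 3 types. Right, percent of cells with none, 1, 2, or 3 or 4 of Pdcd1, Havcr2, Lag3 and Tigit; cells with none make up 59.4% of STK and 69.9% of DMSO CD8 T cells.

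Outside T and NK cells Pdcd1 and Tigit were found at low levels, and in most types mainly in cells that also held T cell marker RNA. Tigit in DMSO pDC went the other way, with 88 of 154 UMIs in cells without T marker UMIs. In STK pDC it was 110 of 337. Hepatocyte or tumour cells had 8 of 10 genes at least 1.5 times higher in STK and 0 lower, against 9.39% and 4.46% of 13106 genes. There Pdcd1 had 3.60 CPM in STK and 0.800 CPM in DMSO, a ratio of 4.50 (2.79 to 7.52), and Tigit 4.03 and 0.870 CPM, a ratio of 4.63 (2.94 to 7.55). Both levels are low, from 76 and 23 UMIs for Pdcd1 and 85 and 25 for Tigit. The 8 T cell markers were all present in these cells and together had 50.5 CPM in STK and 29.4 CPM in DMSO. Cells with a T marker UMI were 13.9% in STK and 16.5% in DMSO. For each 100 T marker UMIs there were 7.14 Pdcd1 UMIs in STK and 2.72 in DMSO, and 7.98 and 2.96 Tigit UMIs. In hepatocyte or tumour cells with no T marker UMI, Pdcd1 was left with 0 STK and 2 DMSO UMIs and Tigit with 9 and 2, so nearly all of the RNA of these receptors was in cells that also held T cell RNA. Of Lag3, 17 of 27 STK and 4 of 10 DMSO UMIs were in cells without it, a ratio of 5.48 (1.79 to 22.4). Of Havcr2, 7 of 22 and 9 of 11 UMIs were in such cells. Pdcd1lg2, with 29 and 11 UMIs in all, was left with 8 and 5.

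In pDC 3 of 10 genes were at least 1.5 times higher, against 8.49% of 10835 genes: Pdcd1 at 2.85 (2.06 to 4.02), Cd226 at 3.21 (1.60 to 7.13) and Pdcd1lg2 at 2.15 (1.13 to 4.38). The 8 T markers had 297 CPM in STK and 189 CPM in DMSO pDC, and called doublets were 10.6% and 9.47% of these cells. In pDC without T marker UMIs Pdcd1 had 7.40 CPM in STK and 4.90 CPM in DMSO, a ratio of 1.51 (0.788 to 3.02), and Tigit 27.1 and 28.8 CPM, a ratio of 0.944 (0.707 to 1.26). Over all pDC Tigit had 61.6 and 41.2 CPM, so the STK excess was not seen in the cells free of T marker RNA. Pdcd1lg2 was left with 4 STK and 9 DMSO UMIs in those pDC, out of 41 and 13, and Cd226 with 2 and 0, out of 47 and 10. The summed T markers were also higher in STK in cDC1 (147 and 93.4 CPM), cDC2 (123 and 113 CPM) and classical monocytes (86.4 and 72.2 CPM). They were lower in STK in B cells (174 and 274 CPM), where Tigit was called from 21 and 3 UMIs, in macrophages (92.7 and 103 CPM), where Cd226 was, and in migratory DC (157 and 215 CPM), where Havcr2 was called from 25 and 14 UMIs. What T cell RNA contributed to these calls was not tested.

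Cd274, the PD-L1 gene, was highest in migratory DC, the mature dendritic cells that carry antigen to lymph nodes, with 420 CPM (385 to 458) in STK and 343 CPM (309 to 380) in DMSO, a ratio of 1.22 (1.07 to 1.40). Within the sexes that ratio was 0.723 (0.415 to 1.38) in female migratory DC, from 236 and 13 UMIs and only 3 DMSO cells. In male migratory DC it was 0.870 (0.668 to 1.12), from 81 and 239 UMIs. Both intervals include 1. In macrophages and classical monocytes Cd274 was lower in STK. In macrophages it had 130 CPM (122 to 139) in STK and 166 CPM (155 to 178) in DMSO, a ratio of 0.782 (0.711 to 0.861). In classical monocytes it had 45.1 CPM (37.3 to 53.9) in STK and 68.4 CPM (60.0 to 77.7) in DMSO, a ratio of 0.659 (0.524 to 0.824). The intervals did not overlap in either type. In male cells these ratios were 0.614 and 0.532, while in female cells they were 1.14 in macrophages, from 525 and 25 UMIs, and 2.31 in classical monocytes, from 56 and 6 UMIs. The lower Cd274 of these 2 types was thus seen in male cells. The female intervals were 0.761 to 1.77 in macrophages and 0.997 to 6.56 in classical monocytes. The first includes the ratio over all cells, so the female macrophage counts cannot show that the difference was absent.

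In lymphocytes Cd274 was higher in STK in each of the 5 T and NK types. CD8 T cells had 56.4 CPM in STK and 41.2 CPM in DMSO, a ratio of 1.37 (1.17 to 1.60), and NK cells 63.8 and 50.8 CPM, a ratio of 1.26 with a lower bound of 1.05. CD4 T cells had 86.4 CPM in STK and 44.6 CPM in DMSO, a ratio of 1.94 (1.31 to 2.89), the only one of these past 1.5. Male cells were higher in STK in all 5 types, and female cells in all but Treg, where the ratio was 0.333 from 34 and 8 UMIs. In cDC2 Cd274 had 82.7 and 56.7 CPM, a ratio of 1.46 (1.17 to 1.83). Hepatocyte or tumour cells had little of it, 4.45 CPM in STK and 3.23 CPM in DMSO. Neutrophils, with 167 and 187 CPM, and non-classical monocytes, with 176 and 207 CPM, did not differ beyond counting error. Within the sexes the ratio in non-classical monocytes was 0.660 (0.439 to 0.991) in female cells, from 49 and 54 UMIs. In their male cells it was 1.28 (0.758 to 2.06), from 21 and 100 UMIs.

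Pdcd1lg2, the second PD-1 ligand, showed its widest difference in NK cells. NK cells had 112 CPM (104 to 122) in STK and 38.7 CPM (32.7 to 45.4) in DMSO, a ratio of 2.91 (2.43 to 3.50) from 622 and 150 UMIs. Female NK cells had a ratio of 3.67 and male ones 4.26, so the excess was present in both sexes. At 1000 UMIs a cell 11.0% of STK and 3.79% of DMSO NK cells had a Pdcd1lg2 UMI, against 0.217% of STK hepatocyte or tumour cells and 0 of 1280 in DMSO, which allows a share of up to 0.234%. NK cells thereby held 29.4% of all Pdcd1lg2 UMIs in STK and 14.7% in DMSO, and were the highest type in STK, while in DMSO the highest were migratory DC and Treg cells.

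Smaller differences of Pdcd1lg2 were found in T cells. Other T cells had 68.3 CPM in STK and 40.0 CPM in DMSO, a ratio of 1.71 (1.37 to 2.14), and CD8 T cells 210 and 97 UMIs, a ratio of 1.68 (1.31 to 2.15). In other T cells thinned to 1000 UMIs the direction was not kept (ratio 0.845). Treg cells, with 74.2 and 58.9 CPM, had a ratio of 1.26 (0.946 to 1.68). In migratory DC, a classical source of PD-L2, the values were 82.2 and 84.9 CPM, a ratio of 0.968 (0.723 to 1.30), and in macrophages 15.7 and 17.5 CPM, a ratio of 0.896 (0.668 to 1.20). Other antigen-presenting cells had few UMIs: 21 in STK and 13 in DMSO B cells (ratio 1.46, 0.695 to 3.16), 40 and 24 in cDC2 (1.22, 0.718 to 2.12), and 12 and 2 in cDC1, too few for a ratio.

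**Figure D4:**
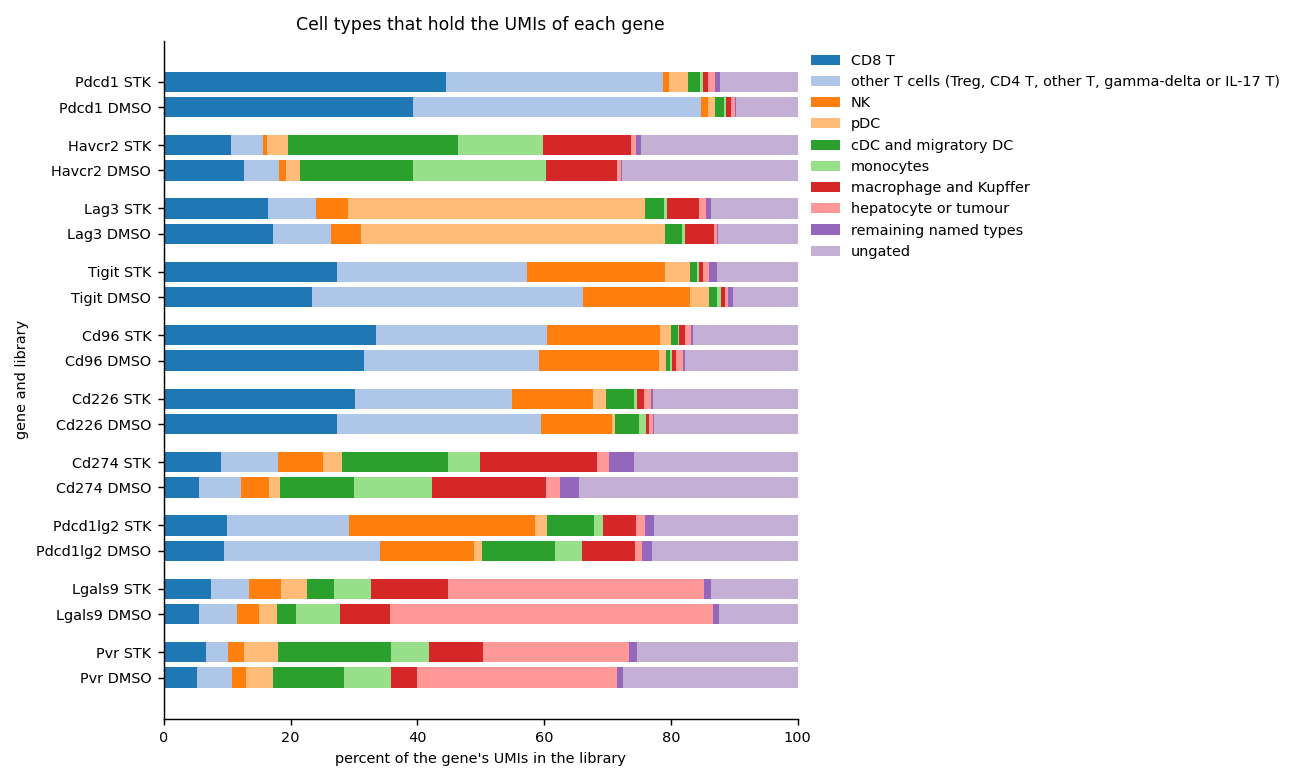
Percent of each gene's UMIs in the CD45-sorted libraries held by each group of cell types, one bar a library with STK above DMSO. CD8 T cells hold 44.5% of Pdcd1 UMIs in STK and 39.4% in DMSO, pDC 46.9% and 48.0% of Lag3 UMIs, NK cells 29.4% and 14.7% of Pdcd1lg2 UMIs, and hepatocyte or tumour cells 40.4% and 50.9% of Lgals9 UMIs.

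Lgals9 was the most evenly expressed of the 10 genes and the least different. It was measured in all 15 types, the ratio ran between 0.834 in B cells and 1.30 in non-classical monocytes, and 0 types passed 1.5. Classical monocytes had 426 CPM in STK and 361 CPM in DMSO (ratio 1.18, 1.09 to 1.28), macrophages 355 and 340 CPM (1.04, 0.980 to 1.11), and hepatocyte or tumour cells 398 and 370 CPM (1.08, 1.05 to 1.11). The ratio in hepatocyte or tumour cells was 1.64 in female cells, from 5773 and 1559 UMIs, and 0.882 in male cells, from 887 and 7152 UMIs. It was thus opposite in the sexes although close to 1 over all cells. These cells held 40.4% of Lgals9 UMIs in STK and 50.9% in DMSO. The libraries were sorted for CD45, so these shares describe the sorted cells and not the tumour tissue.

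Pvr, the CD155 gene shared as a ligand by TIGIT, CD96 and CD226, was higher in STK in several types that present antigen. In cDC2 it had 66.9 CPM (57.8 to 77.0) in STK and 23.4 CPM (17.4 to 30.9) in DMSO, a ratio of 2.85 (2.08 to 3.98) from 195 and 50 UMIs. In macrophages it had 20.7 and 8.64 CPM, a ratio of 2.40 (1.69 to 3.46), and in classical monocytes 34.1 and 16.5 CPM, a ratio of 2.07 (1.47 to 2.94). The CPM intervals of the libraries did not overlap in any of the 3. In cells without T marker UMIs the ratios were 2.51, 2.37 and 1.92. Migratory DC, where Pvr was as high as in cDC2 of the STK library, had 67.7 CPM in STK and 48.9 CPM in DMSO, a ratio of 1.38 (0.970 to 1.99).

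Pvr was also higher in hepatocyte or tumour cells, at 18.8 CPM (17.0 to 20.8) in STK and 11.3 CPM (10.1 to 12.6) in DMSO, a ratio of 1.66 (1.43 to 1.93). There the ratio was 1.63 in female cells, 2.70 in male cells and 1.74 in cells free of T marker UMIs. Unlike Pdcd1 and Tigit in these cells, Pvr kept its level when cells with T marker UMIs were left out, at 19.0 CPM in STK and 10.9 CPM in DMSO. By sex, the ratio in cDC2 was 1.23 in female cells, from 120 and 6 UMIs, and 2.66 in male cells, from 38 and 23. In male macrophages it was 1.45, and in female macrophages Pvr had 86 UMIs in 388 STK cells and 0 in 34 DMSO cells, for which no ratio is given. In classical monocytes it was 3.22 in female cells, from 52 and 4 UMIs, and 1.43 in male cells. In CD8 T cells Pvr had 14.7 and 8.73 CPM, a ratio of 1.68 (1.20 to 2.37), with 0.765 in male cells.

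Beside these, 3 of 9 measured genes in cDC2 were at least 1.5 times higher in STK (Pvr, Pdcd1 and Tigit) and 1 lower (Lag3), against 6.51% and 13.9% of 9362 genes. For macrophages the count was 2 of 9 higher (Pvr and Cd226) and 0 lower, against 6.48% and 8.68% of 10743 genes. For classical monocytes it was 2 of 6 higher (Pvr and Pdcd1) and 1 lower (Cd274), against 6.55% and 10.7% of 9387 genes. In these 3 types Pdcd1, Tigit and Cd226 stood at or under 18.2 CPM. Pdcd1 in cDC2 had a ratio of 2.28 in female cells, from 37 and 1 UMIs, and 0.371 in male cells, from 3 and 13 UMIs.

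**Figure D5:**
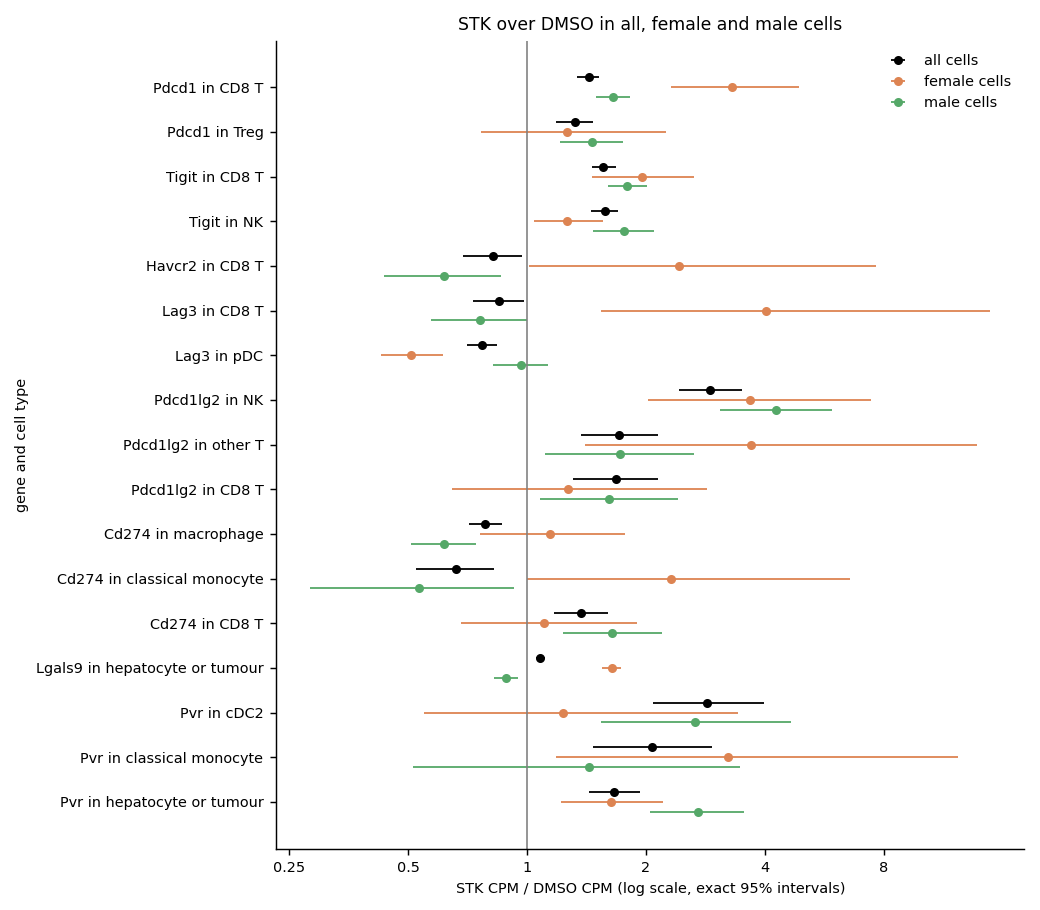
STK over DMSO ratio of CPM (log axis, exact 95% intervals) for 17 pairs of gene and cell type, in all cells (black), female cells (orange) and male cells (green). The female intervals are wide because few DMSO cells were female. Pdcd1lg2 in NK cells lies above 1 in all 3 (2.91, 3.67 and 4.26), and Cd274 in classical monocytes and Lgals9 in hepatocyte or tumour cells lie on opposite sides of 1 in the sexes.

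The genes that tracked each member across cell types were sought by Pearson correlation of log2(CPM + 1) over 30 points, 15 types in 2 libraries, among 9127 genes. The 3 genes most like Pdcd1 were Cd3d, Cd3e and Cd3g, parts of the T cell receptor complex (r = 0.975, 0.973 and 0.971). Tigit was most like Zap70, a kinase of that receptor, Il2rb and Tox (0.960, 0.958 and 0.951), and Cd96 most like Sytl2, Lck and Zap70 (0.974, 0.968 and 0.966). Cd226 was most like Stk32c, Rinl and Thy1 (0.918, 0.902 and 0.895). Lag3, with Eldr, Rnaset2b and Fyn (0.814, 0.808 and 0.795), and Havcr2, with Parp12, Ifi211 and Plekho2 (0.845, 0.830 and 0.824), had looser matches.

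Among ligands the nearest patterns were Sh3glb1, Cflar and Rhog for Cd274 (0.881, 0.881 and 0.869), Mllt6, Stat4 and Plgrkt for Pdcd1lg2 (0.887, 0.858 and 0.850), Gde1, Ell and Aprt for Lgals9 (0.829, 0.789 and 0.786), and Rapgef2, Tmem176a and Tmem176b for Pvr (0.775, 0.775 and 0.738). Plgrkt lies next to Cd274 on chromosome 19, 64 bases away. The points share libraries, depth and the same gates, so these values are a description.

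Other genes of the same pathways, taken from lists, were compared in 6 types with the same limits of at least 20 UMIs and 1.5-fold, and their counts are to be read against the shares of all genes printed above for each type. Some of them (Cd5, Ikzf2, Eomes and Vsig4) are also markers used to place cells in types, so their values are not independent of the gates. Of 14 other checkpoint receptors, 13 were measured in CD8 T cells, where 1 was higher in STK (Cd200r1, ratio 1.55) and 0 lower. Klrc1, which encodes the inhibitory receptor NKG2A, had 195 CPM in STK and 147 CPM in DMSO there, a ratio of 1.32 (1.22 to 1.44). In NK cells 3 of 11 were higher and 1 lower. They include Ctla4, at 41.8 CPM in STK and 21.4 CPM in DMSO, a ratio of 1.95 (1.51 to 2.54). In Treg cells, where Ctla4 is a defining gene, it had 1554 and 1615 CPM, a ratio of 0.963 (0.909 to 1.02), and 0 of 11 receptors passed the limit in either direction.

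In the 20-gene list of other checkpoint ligands, 3 of 13 were higher and 1 lower in classical monocytes, and 1 of 16 higher and 2 lower in macrophages. Cd80, a ligand of CD28 and CTLA-4, had 59.8 CPM in STK and 30.9 CPM in DMSO monocytes, a ratio of 1.94. H2-Aa, part of the MHC class II ligand of LAG-3, had 1836 and 966 CPM in monocytes, a ratio of 1.90 (1.82 to 1.99). Ceacam1 was lower in monocytes, with 148 and 329 UMIs, a ratio of 0.590 (0.483 to 0.719). Vsig4, a B7-family receptor of tissue macrophages, had 9.49 and 1.85 CPM in macrophages, a ratio of 5.12 (2.54 to 11.7) from 66 and 9 UMIs. Vsig4 is a marker of the separate Kupffer cell type (35 STK and 11 DMSO cells), so this value covers only cells not placed there. In CD8 T, NK and Treg cells the ligand counts were 0 higher and 1 lower of 13, 1 and 1 of 10, and 0 and 2 of 11.

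Of 20 genes found from the exhaustion-associated list, 2 of 19 were higher and 1 lower in CD8 T cells, 4 of 17 and 1 in NK cells, and 5 of 19 and 1 in Treg cells. The shares of all genes that were higher and lower, given above, are 6.08% and 7.62% in CD8 T, 5.85% and 8.94% in NK and 6.48% and 10.8% in Treg cells, so that 1 lower gene is no more than the background in these lists. Nr4a3, an early gene of antigen receptor signalling, had 87.8 CPM in STK and 26.7 CPM in DMSO CD8 T cells, a ratio of 3.29 (2.77 to 3.93). Its ratios elsewhere were 3.29 in NK cells, 5.17 in macrophages, 4.15 in classical monocytes and 3.86 in hepatocyte or tumour cells. In Treg cells the ratio of Nr4a3 was smaller, 1.61 (1.26 to 2.07). Bhlhe40 was higher in CD8 T cells, with 303 and 201 CPM, a ratio of 1.51 (1.41 to 1.62). Prdm1, which encodes Blimp-1, was lower in CD8 T cells, with 19.8 CPM in STK and 34.1 CPM in DMSO, a ratio of 0.580 (0.468 to 0.717), and also in NK cells at 0.560 and Treg cells at 0.664. In classical monocytes 7 of 16 genes of this list were higher, and Nr4a1 was the 1 that was lower, at 730 CPM in STK and 1759 CPM in DMSO, a ratio of 0.415 (0.394 to 0.437). In macrophages 4 of 17 were higher and 4 lower.

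Of 7 phosphatases and adaptors next to these receptors, 1 was higher in CD8 T cells, Sh2d2a, the adaptor TSAd, with 695 CPM in STK and 446 CPM in DMSO, a ratio of 1.56 (1.49 to 1.63). Ptpn6, which encodes the phosphatase SHP-1, had 148 and 179 CPM in CD8 T cells, a ratio of 0.830 (0.763 to 0.902), and Ptpn11, which encodes SHP-2, 65.7 and 57.2 CPM, a ratio of 1.15 (1.00 to 1.32). None of the 7 passed the limit in NK or Treg cells, and 1 was higher in macrophages and in classical monocytes, Sh2d2a in both.

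The 9 genes of the interferon-gamma response upstream of Cd274 had 2 higher and 1 lower in CD8 T cells. Ifngr1, the receptor, had 827 CPM in STK and 527 CPM in DMSO, a ratio of 1.57, and Jak2 72.3 and 42.8 CPM, a ratio of 1.69 (1.45 to 1.96). Ifng itself was lower, with 64.3 CPM in STK and 103 CPM in DMSO, a ratio of 0.626 (0.556 to 0.705), and in NK cells it had 165 and 248 CPM, a ratio of 0.664 (0.606 to 0.728). In macrophages, where Cd274 was lower, 0 of 9 genes were higher and 2 lower, Ifng and Socs1. Socs1 had 24.3 CPM in STK and 40.5 CPM in DMSO macrophages, a ratio of 0.599. Irf1, which lies upstream of Cd274, had 100 CPM in STK and 132 CPM in DMSO macrophages, a ratio of 0.757 (0.679 to 0.844) that did not pass the limit. In classical monocytes 0 of 8 were higher and 1 lower, Socs1 at 28.0 and 66.4 CPM, a ratio of 0.422 (0.320 to 0.551). In NK cells 1 of 9 was higher (Stat3, ratio 1.57) and 1 lower, and in Treg cells 1 (Jak2, ratio 1.53) and 1.

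In hepatocyte or tumour cells these lists had 6 of 12 other receptors, 4 of 16 other ligands, 12 of 18 exhaustion-associated genes, 3 of 7 adaptors and 4 of 9 interferon-gamma genes at least 1.5 times higher, against 9.39% of all genes in that type, and 1 gene of the last list lower, against 4.46%. Some of these are T cell genes, such as Ctla4, which had 3.27 CPM in STK and 1.63 CPM in DMSO. The T marker values given above differ in the same direction in these cells. Others are MHC class II genes, with larger counts. H2-Aa had 105 CPM in STK and 51.1 CPM in DMSO, a ratio of 2.06, from 2220 and 1468 UMIs. The ratios of H2-Ab1 and H2-Eb1 were 1.95 and 1.58. In the interferon-gamma list Socs1 had a ratio of 2.24, Jak2 1.66 and Ifngr1 1.57. What T cell RNA contributed to these counts was not tested.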

How the data were processed

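Live CD45-positive cells of mouse tumours were profiled in 2 droplet libraries, 1 from STK-treated and 1 from DMSO-treated mice, both with the same batch label. Raw UMI counts were deposited as gene-by-barcode matrices written by Cell Ranger 6.0.2, per the file headers, and GRCm38 (mm10) was the build, per the submitters' processing notes. Aligner settings are absent from these sources. The 10 genes and the gene lists were chosen with earlier results of these data known, and the gate limits and the doublet score limit were set after seeing the data.

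Barcodes under 500 UMIs, under 250 genes or over 10% mitochondrial RNA were dropped (826 in STK and 632 in DMSO). Cells were placed in types by capped marker scores of at least 0.25 with a lead of 0.1 and at least 3 marker genes. Doublets scored by Scrublet (limit 0.25) were 3.87% of STK and 3.65% of DMSO cells. They were kept in the main values and left out in an alternative. Of the shared barcodes, 183 passed the filters in both libraries. Sex was read per cell from Xist against Y-linked genes.

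For each gene and type, UMIs were summed over cells and divided by the type's UMIs. Intervals are exact at 95% (Poisson for CPM, Clopper-Pearson for shares, conditional binomial for ratios) and cover counting error only. Ratios need at least 20 UMIs over both libraries, and a pair counts as called past 1.5-fold. Shares of cells were taken after thinning each cell to 1000 UMIs, leaving out shallower cells. Named genes are all 10 members in each of the 15 types, and from each other list up to 4 genes in each of 6 types, the furthest from equal among those with at least 50 UMIs in the library where higher. With 1 library a group no test was run. Alternatives were another normalization (edgeR 4.0.16 TMM in R 4.3.3), other filters, gates and UMI minimums, thinning, doublets left out, each sex alone, and, chosen after seeing the data, cells free of T marker UMIs and co-detection within each sex. A planned comparison of the members' protein sequences was not made here. The list of exhaustion-associated genes had 20 of 21 symbols in the files. Python 3.11.15, numpy 2.4.6, scipy 1.17.1, pandas 2.3.3 and scanpy 1.11.5 were used, and the summing and ratio steps were tested on simulated data.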

Additional observations from a re-analysis of the deposited data

Results flagged for a closer look

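None of the differences below was tested, because each group has 1 library. Some genes went in opposite directions in different types, each beyond its counting interval. The STK over DMSO ratio of Lag3 was 3.68 in hepatocyte or tumour cells, and 0.658 in Treg cells and 0.613 in cDC2. The first of these rests on 27 STK and 10 DMSO UMIs and was 0.828 with the mean of the cells' own CPM, so the opposite direction depends on that choice. That of Cd274 was 1.94 in CD4 T cells and 0.659 in classical monocytes.

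Other genes went in opposite directions in the sexes. Havcr2 in CD8 T cells had a ratio of 2.43 in female and 0.616 in male cells. Cd274 in Treg cells had 0.333 in female and 1.90 in male cells. Lgals9 in hepatocyte or tumour cells had 1.64 in female and 0.882 in male cells. Few DMSO cells were female, and the female DMSO counts behind the first 2 of these ratios are 5 and 8 UMIs.

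Cells that met no marker rule, 2310 in STK and 2736 in DMSO, entered no comparison but also carried the genes. Pdcd1 had 55.1 CPM in STK and 28.4 CPM in DMSO there, a ratio of 1.94. Tigit had 78.7 and 38.6 CPM, a ratio of 2.04, and Pdcd1lg2 33.2 and 17.2 CPM, a ratio of 1.93. The 8 T markers together had 636 CPM in STK and 494 CPM in DMSO in these cells, and their contribution was not tested.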

How the results depend on the processing

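The count of 30 higher pairs stayed within 1.5 times under every alternative (20 to 45) except a limit of 2-fold, which gave 17. The number of measured pairs changed as well, so the share of higher pairs was less steady than the count. It was 30 of 119 in the main setting, 29 of 81 in female and 29 of 88 in male cells. With thinning it was 20 of 74, and with 1 UMI in each library 45 of 145. The count of 5 lower pairs was 3 with a stricter gate, 3 with cells thinned to 1000 UMIs, 3 with a minimum of 50 UMIs, 9 in female cells, 9 in male cells, 8 with 1 UMI in each library and 0 at 2-fold. The median log2 ratio of the members stayed between 0.26 and 0.37. Of 1164 single ratios under alternatives, 1020 stayed within the interval of the main ratio, 139 left it, some of them across 1 where the main ratio was not past 1.5-fold (as Havcr2 and Lag3 in female CD8 T cells), and 5 pairs past 1.5-fold reversed: Havcr2 (0.493) and Lag3 (0.828) in hepatocyte or tumour cells with the mean of the cells' own CPM, Cd274 in classical monocytes in female cells (2.31), Pdcd1lg2 in other T cells after thinning (0.845) and Pvr in CD8 T cells in male cells (0.765). The cause was not tested. Most ratios that moved did so within 1 sex. In CD8 T cells, the ratio of shares with 2 or more of 4 receptors was 3.11 in female cells (3 of 83 DMSO cells), and in Treg cells it was 0.959 in female cells (14 of 73 STK and 3 of 15 DMSO cells). No paired analysis was possible because each group has 1 library and the groups share only 1 replicate number. No replicate could be left out for the same reason. Pairs that fell under 20 UMIs in an alternative got no value there. Depth limits the low pairs: 119 of 150 had enough UMIs for a ratio.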
